A study of Mus musculus with 8 samples.

Results

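The genes described here encode the mitochondrial respiratory chain and ATP synthase, from both the nuclear and the mitochondrial genome. Members were chosen by name, as every row of the count table whose symbol begins with the stem of a subunit family (Ndufa, Ndufb, Ndufc, Ndufs, Ndufv, Uqcr, Cox4 to Cox8, Atp5) or of the mitochondrial coding genes, with Sdha to Sdhd, Cyc1 and Cycs, and without assembly factors, pseudogenes, antisense and predicted genes. The rule gave 100 of 49492 rows, 87 nuclear and 13 mitochondrially encoded. It took in Atp5s and Atp5sl, which carry a subunit's stem and are not subunits, while Ndufa4 and Ndufa4l2, named as complex I genes, were placed in complex IV. RNA came from 8 libraries of CD8+ T cells. They were taken with CD8a beads, on day 14, from subcutaneous tumours of B16, a mouse melanoma line. The KO libraries (KO1 to KO4) came from Lckcre-PLPP1fl/fl mice, in which Lck-Cre, a recombinase of the T cell lineage, acts on floxed alleles of Plpp1, the gene of phospholipid phosphatase 1. The WT libraries (WT1 to WT4) came from PLPP1fl/fl mice, which carry the same floxed alleles without Cre. Strain, age and the deleted exon are not stated in the material used. Nothing in the labels shows that the 4 libraries of a genotype are separate animals, so each p-value measures the spread between libraries, which may be technical.

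The chain passes electrons from NADH through complex I, or from succinate through complex II, to ubiquinone, then through complex III, cytochrome c and complex IV to oxygen. Complexes I, III and IV pump protons, and complex V, the ATP synthase, uses their return to make ATP. Complex II is wholly nuclear in origin, while the other complexes join nuclear subunits to a few that are made inside mitochondria. The mitochondrial genome is transcribed as long RNAs from both strands that are cut at the tRNAs between the coding genes, whereas each nuclear subunit has its own promoter. In T cells the chain supports proliferation and memory, and mitochondrial function is often reduced in T cells of tumours.

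Total counts ran from 44118131 to 57716522 in KO and from 49856353 to 61999941 in WT. Plpp1 had 0.498 ± 0.14 CPM in KO and 0.892 ± 0.18 CPM in WT (log2 fold change -0.84, SE 0.26, edgeR adjusted p = 0.0064), where CPM are counts scaled to a common library total, and its groups overlapped. Every KO library held Y-linked RNA, with Ddx3y at 78.4 ± 3.1 CPM in KO and 0.0703 ± 0.043 CPM in WT (SD, n = 4 each). Xist, the RNA of the inactive X chromosome, stood at 51.1 ± 4.4 CPM in KO and 747 ± 27 CPM in WT. The mice are described as female, which the Y-linked RNA and low Xist of the KO libraries do not match. Genotype and the expression of sex chromosomes differ together in all libraries, so they cannot be told apart in any result that follows. Of the cell markers, 6 of 6 CD8 T cell genes were called lower (948 to 1066 CPM summed in KO, 1449 to 1503 CPM in WT). The NK genes Ncr1, Klrb1c and Eomes summed to 42.4 to 47.7 CPM in KO and 22.9 to 28.1 CPM in WT, with 2 of 3 called higher. Only 1 of the 3 reached a mean of 10 CPM, and their log2 fold changes ran from -0.54 to 1.72. Macrophage genes held 20.9 to 22.8 and B cell genes 2.38 to 3.14 CPM in KO, against 19.3 to 21.6 and 4.37 to 5.78 CPM in WT. Melanoma genes, with Mlana, Tyr and Tyrp1 at 0 counts, summed to 5.30 to 6.56 CPM in KO and 17.8 to 19.4 CPM in WT. Of these 6 genes 2 were tested, at log2 fold changes of -1.96 and -0.10, and 1 was called lower. Only 1 reached a mean of 10 CPM, so most of the sum lay on 1 gene. Fibroblast and endothelial genes summed to 24.8 to 30.1 CPM in KO and 99.2 to 111.5 CPM in WT. Nearly all of that sum lay on Pecam1 (log2 fold change -1.90, edgeR adjusted p = 2.2e-18), while Col1a1, Col3a1 and Cdh5 were at most 0.189 CPM on average in either genotype. The erythroid globin genes summed to 9.35 to 11.01 CPM in KO and 4.46 to 5.26 CPM in WT, with 3 of 3 called higher. The cycling genes Mki67 and Top2a were called lower and Cdk1 and Ccnb1 higher. The part of these differences in the results on the respiratory chain was not tested. In bulk RNA, fewer cells of a type and less RNA per cell cannot be told apart.

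RNA of the nuclear encoded chain was mostly higher in KO and RNA of the mitochondrially encoded chain was lower. Of 82 nuclear members tested, 52 were called higher in KO, 9 lower and 21 were not called, at an adjusted p under 0.05 in edgeR's quasi-likelihood test over all 17940 tested genes. Of the 13 mitochondrial members, 0 were called higher, 11 were lower and 2, mt-Nd3 and mt-Cytb, were not called. At an unadjusted p under 0.05 edgeR had 1 mitochondrial member higher, mt-Nd3, and DESeq2 called 0 higher and 10 lower. Over all tested genes, 64.3% were called, 32.8% higher and 31.6% lower, so the genotypes differed broadly and a call on its own is common. The median log2 fold change was 0.19 over the nuclear members and -0.34 over the mitochondrial ones, against -0.01 over all tested genes. Among genes with a mean of at least 10 CPM, where most members lie, 43.4% were called higher and 34.2% lower, and of the 78 nuclear members at that level 52 were higher and 8 lower. The KO and WT libraries did not overlap for 44 nuclear members with KO higher and 8 with KO lower, and for 9 mitochondrial members with KO lower, where 30.1% of tested genes lay wholly higher and 28.2% wholly lower. The changes were small. Tested against a fold of 1.5, only Ndufab1 and Cycs were higher and mt-Co2, Cox7a2l and Cox6a2 lower, that is 2 and 3 of 95 members, where 8.45% of tested genes passed as higher and 9.08% as lower. The mt-Co2 call is for its own counts. With the counts of its nuclear copy, described below, its fall was smaller than 1.5-fold (log2 fold change -0.42). The remaining 5 members, Cox4i2, Cox7b2, Cox8b, Cox8c and Ndufa4l2, had too few counts to be tested.

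**Figure D1:**
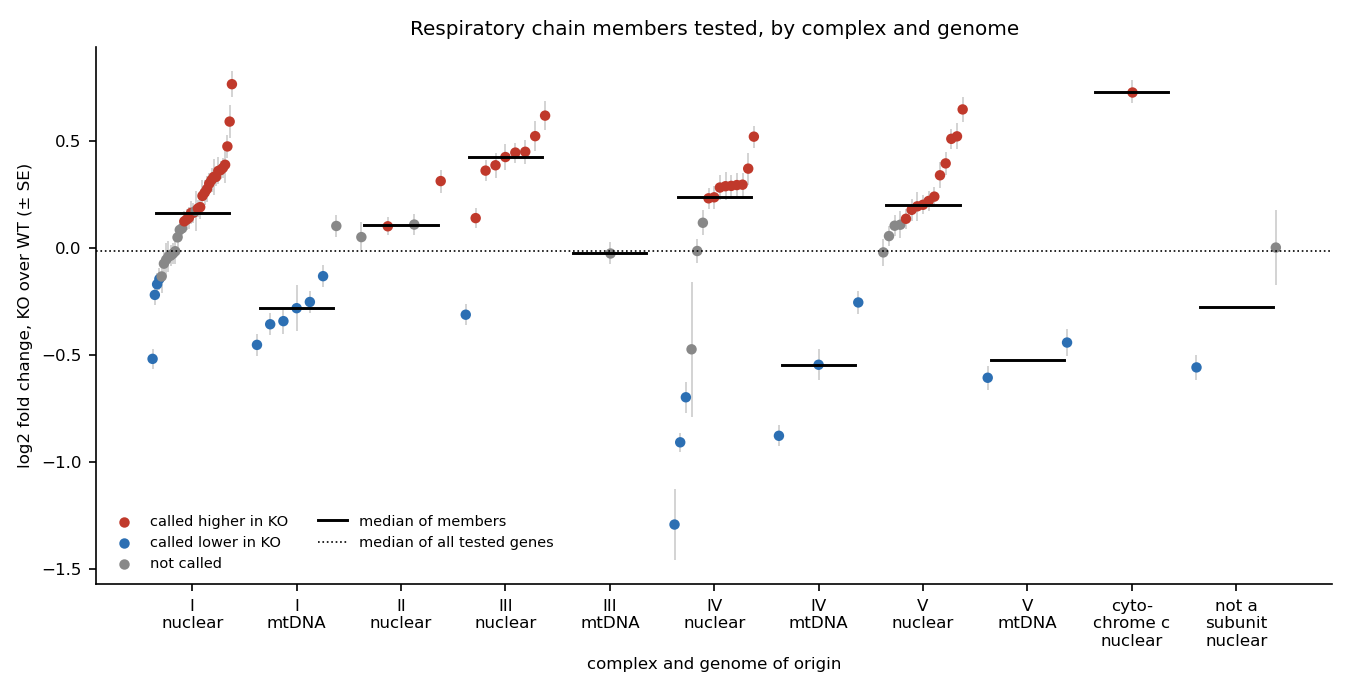
Log2 fold change (KO over WT, with its standard error) of the 95 tested members, by complex and genome of origin, coloured by call. Black bars are medians of each group, which lie above the dotted median of all tested genes in the nuclear parts of complexes I to V, and at or below it in the mitochondrial parts.

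The mitochondrial genome gave the members with the most RNA per length. Mean levels reached 2019 CPM per kb for mt-Cytb, the cytochrome b of complex III, and 1793 CPM per kb for mt-Nd4l of complex I, while the median nuclear member of complex I stood at 47.0 CPM per kb. A few mitochondrial genes stood far below their neighbours, down to 26.9 CPM per kb for mt-Co3, although all come from the same long transcripts. These low genes have copies in the nuclear genome, as do some mitochondrial genes that were not low. In GENCODE M21, which uses the GRCm38 build, 7 of the 13 genes matched 7 predicted genes lying together on the minus strand of chromosome 1, bases 24611535 to 24616197. The alignments were free of mismatches for mt-Nd4, mt-Nd4l, mt-Co2, mt-Co3 and mt-Atp6, and held 1 differing base for mt-Nd3 (over 345 bases) and for mt-Co1 (over 483 bases). They covered over 98% of mt-Nd3, mt-Nd4l, mt-Co2, mt-Co3 and mt-Atp6, 63.6% of mt-Nd4 and 31.3% of mt-Co1. The first 60 bases of mt-Co2, the copper-binding subunit of complex IV (chrM:7013-7072, plus strand), and of Gm28661 (chr1:24615506-24615565, minus strand) show how a read can match both places. Those of mt-Nd3 (chrM:9459-9518, plus strand) and Gm28438 (chr1:24613060-24613119, minus strand) show their only difference, in capitals, which is T3C counted from the first base of mt-Nd3.
mt-Co2: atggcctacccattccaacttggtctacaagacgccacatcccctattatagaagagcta
Gm28661: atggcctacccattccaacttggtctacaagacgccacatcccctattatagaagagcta
mt-Nd3: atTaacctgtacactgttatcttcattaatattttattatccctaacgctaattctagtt
Gm28438: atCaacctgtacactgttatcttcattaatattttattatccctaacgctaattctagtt
How reads that match both places were assigned is not stated, and counts on the copies cannot be told apart from counts of the mitochondrial genes.

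The copies held much of the signal. Gm28661 averaged 827 CPM in KO and 1058 CPM in WT, more than mt-Co2 itself at 100.02 ± 3.8 CPM in KO and 184 ± 11 CPM in WT (SD, n = 4 each). Only 2.85% of the counts of mt-Co3 and its copy lay on mt-Co3, and 5.54% in the case of mt-Atp6, against 98.8% for mt-Nd4. For mt-Nd4l it was 98.3%, although its copy is free of mismatches and covers nearly the whole gene. With the copies' counts added, mt-Co2 stood at 1585 CPM per kb, mt-Co3 at 947 CPM per kb and mt-Atp6, now the highest of the 13, at 2062 CPM per kb, while mt-Nd3 was lowest at 290.1 CPM per kb. The direction of the genotype difference was the same either way, and 11 genes were called lower and 0 higher in both. The sizes differed. The median log2 fold change over the 13 genes was -0.34 on the genes' own counts and -0.28 with the copies added, a setting chosen after the data were seen. Over the 6 genes with no copy found, it was -0.32, from -0.45 to -0.02. Only annotated transcripts were searched, with matches of at least 50 bases, so unannotated copies of these genes were not looked for.

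**Figure D2:**
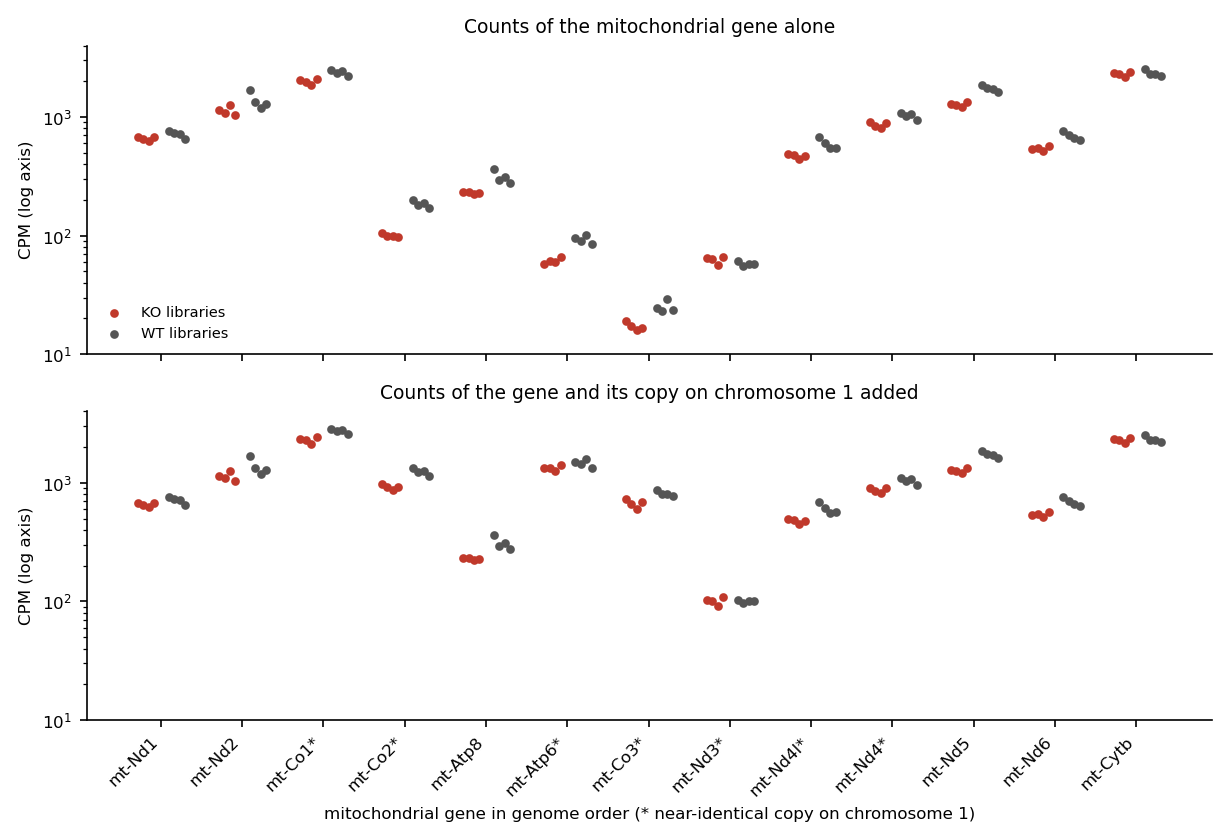
CPM per library (log axis) of the 13 mitochondrially encoded members in genome order, KO in red left of WT in grey, from each gene's own counts (top) and with the counts of its copy on chromosome 1 added (bottom). The dip at mt-Co2, mt-Atp6 and mt-Co3 in the upper panel is absent from the lower one, and KO stays below WT for most genes in both.

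Among the mitochondrial genes of complex I, which form its proton-pumping membrane arm, 6 of 7 were called lower. Of all tested genes with a mean of at least 10 CPM, 34.2% were called lower. mt-Nd5, with no copy found, had 1277, 1255, 1213 and 1324 CPM in KO, against 1845, 1768, 1709 and 1610.3 CPM in WT (log2 fold change -0.45, SE 0.050, edgeR adjusted p = 4.3e-08). All KO libraries lay below all WT libraries. mt-Nd6, the only coding gene on the other strand, had 540.1, 543, 519 and 566 CPM in KO, against 763, 703, 669 and 639 CPM in WT (log2 fold change -0.36, SE 0.052, edgeR adjusted p = 2.9e-06), again without overlap. It shares 14 exonic bases with mt-Nd5, and the strand setting of the counting is not stated. mt-Nd4l averaged 469.9 ± 19 CPM in KO and 595 ± 59 CPM in WT (log2 fold change -0.34, edgeR adjusted p = 2.4e-05). mt-Nd4 averaged 859 ± 43 CPM in KO and 1022 ± 61 CPM in WT (log2 fold change -0.25, edgeR adjusted p = 0.00019), both without overlap. mt-Nd1 had 673, 649, 623 and 672 CPM in KO, against 761, 733, 719.5 and 651 CPM in WT (log2 fold change -0.13, SE 0.051, edgeR adjusted p = 0.028). mt-Nd2 had 1138, 1088, 1252 and 1038 CPM in KO, against 1692, 1324, 1195 and 1275 CPM in WT (log2 fold change -0.28, SE 0.11, edgeR adjusted p = 0.043). The groups of both overlapped and the calls were weak. mt-Nd1 was not called without KO2, KO3, WT1 or WT2 (adjusted p 0.056 to 0.10), nor mt-Nd2 without KO1, KO2, KO4 or WT2 (adjusted p 0.050 to 0.13) or in DESeq2 (adjusted p = 0.060) or with no filter on low counts (adjusted p = 0.067). mt-Nd3 stood at 62.4 ± 4.2 CPM in KO and 57.99 ± 2.0 CPM in WT (log2 fold change 0.10, SE 0.050, edgeR adjusted p = 0.073), was called higher without KO3 (adjusted p = 0.0089) and among genes without exon overlap (adjusted p = 0.034), and had a log2 fold change of 0.02 with its copy added.

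Complex III has 1 mitochondrial gene, mt-Cytb, and it was not called. It had 2331, 2305, 2160.0 and 2374 CPM in KO, against 2535, 2279, 2289.9 and 2207 CPM in WT (log2 fold change -0.02, SE 0.052, edgeR adjusted p = 0.73), with overlapping groups. As a share of the summed CPM of the 13 genes with their copies it took 17.8, 18.1, 17.7 and 18.05% in KO, against 15.5, 15.1, 15.2 and 15.7% in WT, so its share was higher in every KO library while the sum was lower.

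All mitochondrial genes of complexes IV and V were called lower. mt-Co1, the catalytic subunit of complex IV, had 2040.5, 1972, 1843 and 2105 CPM in KO, against 2482, 2367, 2416 and 2224 CPM in WT (log2 fold change -0.25, SE 0.052, edgeR adjusted p = 0.00018). mt-Co2 had 106, 99.1, 98.1 and 97.3 CPM in KO, against 198, 179, 186 and 171 CPM in WT (log2 fold change -0.88, SE 0.048, edgeR adjusted p = 2.1e-13). With its copy it had 981, 931, 875 and 919.9 CPM in KO, against 1336, 1225, 1263 and 1142 CPM in WT (log2 fold change -0.42, SE 0.053, edgeR adjusted p = 2.4e-07). The groups were apart on both scales, while the log2 fold change was nearer to 0 once the copy was added. mt-Co3 averaged 17.2 ± 1.3 CPM in KO and 25.03 ± 2.9 CPM in WT on its own counts (log2 fold change -0.54, edgeR adjusted p = 1e-06). With its copy it averaged 671 ± 53 CPM in KO and 814 ± 44 CPM in WT (log2 fold change -0.28, SE 0.056, edgeR adjusted p = 0.00014). In complex V, mt-Atp8, for which the search found no copy, had 232, 234, 224 and 230.1 CPM in KO, against 365, 295, 313 and 277 CPM in WT (log2 fold change -0.44, SE 0.064, edgeR adjusted p = 6.8e-06) and did not overlap. mt-Atp6, part of its proton channel, averaged 60.9 ± 3.6 CPM in KO and 92.7 ± 7.4 CPM in WT (log2 fold change -0.61, edgeR adjusted p = 1.8e-09) on its own counts, but with its copy the groups overlapped (log2 fold change -0.14, SE 0.053, edgeR adjusted p = 0.029). mt-Atp8 and mt-Atp6 share 43 exonic bases. On chromosome 1 the copy of mt-Atp6 ends at base 24614651 and that of mt-Co2 begins at base 24614885. The search covered annotated transcripts only, so an unannotated copy of mt-Atp8 between them would have been missed.

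In nuclear complex I, 21 of 36 members were called higher, 4 lower and 11 were not called, with a median log2 fold change of 0.17. The shares were 58.3% higher and 11.1% lower, beside 43.4% and 34.2% of all tested genes with a mean of at least 10 CPM. Of the 7 core subunits, which carry the flavin and the iron-sulfur clusters that conduct electrons, 5 were higher, 0 lower (also at an unadjusted p under 0.05 in edgeR and in DESeq2), and Ndufs3 (log2 fold change -0.07, edgeR adjusted p = 0.26) and Ndufv1 (log2 fold change 0.09, edgeR adjusted p = 0.088) were not called. Of the 29 accessory subunits, 16 were higher and 4 lower. Ndufab1 (chromosome 7, bases 122085403 to 122101886 of GRCm38, minus strand), the mitochondrial acyl carrier protein, had 46.6, 42.4, 44.4 and 50.7 CPM in KO, against 29.2, 27.9, 24.5 and 26.5 CPM in WT (log2 fold change 0.77, SE 0.060, edgeR adjusted p = 1.2e-10). All KO libraries were higher. Its exons share 269 bases with the opposite-strand gene Gm44986, which was also higher at a log2 fold change of 0.82. Ndufb4 of the membrane arm averaged 14.5 ± 1.5 CPM in KO and 9.62 ± 0.80 CPM in WT (log2 fold change 0.59, edgeR adjusted p = 6e-07). Ndufa10 averaged 158 ± 14 CPM in KO and 113 ± 2.3 CPM in WT (log2 fold change 0.48, edgeR adjusted p = 3.7e-08), neither with overlap. At the other end stood Ndufv3, an accessory subunit of the NADH-binding module, with 112, 100.6, 103 and 107 CPM in KO, against 163, 143, 150.2 and 148 CPM in WT (log2 fold change -0.52, SE 0.048, edgeR adjusted p = 2.2e-09). Ndufa13, also known as GRIM-19, averaged 115 ± 5.6 CPM in KO and 134 ± 5.0 CPM in WT (log2 fold change -0.22, edgeR adjusted p = 0.00023). Ndufa12, the nuclear complex I gene with the most RNA per length at 407 CPM per kb, averaged 516 ± 10.3 CPM in KO and 569 ± 45 CPM in WT (log2 fold change -0.14, edgeR adjusted p = 0.018) and is named only because it completes the 4. The X-linked Ndufa1 averaged 47.5 ± 2.8 CPM in KO and 53.4 ± 3.5 CPM in WT (log2 fold change -0.17, edgeR adjusted p = 0.0078), with overlap. The other X-linked member of complex I, Ndufb11, averaged 29.3 ± 2.4 CPM in KO and 29.6 ± 2.0 CPM in WT (log2 fold change -0.01, edgeR adjusted p = 0.85).

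Complex II, the succinate dehydrogenase of the citric acid cycle, had 2 of 4 members called higher and 2 not called, with a median log2 fold change of 0.11. A share of 50% higher lies near the 43.4% of all tested genes with a mean of at least 10 CPM. Sdha (chromosome 13, bases 74322254 to 74350280 of GRCm38, minus strand), the flavoprotein that oxidises succinate, had 270.2, 263, 249.7 and 262 CPM in KO, against 244, 240.2, 245 and 244 CPM in WT (log2 fold change 0.10, SE 0.043, edgeR adjusted p = 0.04). The groups did not overlap, yet the call rested on a small margin, since without KO1, KO2 or any 1 WT library the adjusted p was 0.060 to 0.14. Sdhd, a membrane anchor, had 41.5, 41.05, 39.7 and 45.4 CPM in KO, against 36.1, 33.6, 31.03 and 33.9 CPM in WT (log2 fold change 0.31, SE 0.054, edgeR adjusted p = 2.2e-05), all KO libraries being higher. The iron-sulfur subunit gene Sdhb averaged 55.9 ± 3.4 CPM in KO and 51.7 ± 2.1 CPM in WT (log2 fold change 0.11, edgeR adjusted p = 0.054), and was called higher without KO2 or WT4 (adjusted p 0.034 and 0.046) and among genes without exon overlap (adjusted p = 0.025). The other anchor gene, Sdhc, averaged 38.2 ± 4.6 CPM in KO and 36.9 ± 2.2 CPM in WT (log2 fold change 0.05, edgeR adjusted p = 0.54). Summed over the 4 genes, complex II held 405, 389.8, 382 and 412 CPM in KO, against 369, 359.9, 365 and 369 CPM in WT.

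In nuclear complex III, 8 of 9 members were called higher and 1 lower, with a median log2 fold change of 0.43. Among all tested genes with a mean of at least 10 CPM, 43.4% were called higher and 34.2% lower. Uqcr11 had 117, 102, 103 and 119 CPM in KO, against 71.96, 72.2, 63.2 and 79.6 CPM in WT (log2 fold change 0.62, SE 0.067, edgeR adjusted p = 4.3e-07). Uqcrfs1, the Rieske iron-sulfur protein, had 75.01, 67.96, 65.6 and 83.6 CPM in KO, against 46.1, 50.9, 54.4 and 51.8 CPM in WT (log2 fold change 0.52, SE 0.070, edgeR adjusted p = 6.3e-06). Cyc1, cytochrome c1, had 32.4, 33.5, 36.4 and 39.3 CPM in KO, against 28.4, 25.9, 28.2 and 25.8 CPM in WT (log2 fold change 0.39, SE 0.060, edgeR adjusted p = 5e-06). Uqcr10 averaged 25.9 ± 0.92 CPM in KO and 18.99 ± 1.2 CPM in WT (log2 fold change 0.45, edgeR adjusted p = 2.7e-07). In each of these genes the KO libraries lay wholly above the WT libraries. The exception was Uqcrh (chromosome 4, bases 116066965 to 116075071 of GRCm38, minus strand), the acidic hinge protein beside cytochrome c1. It had 550.5, 537, 503 and 569 CPM in KO, against 702, 653, 654 and 669.5 CPM in WT (log2 fold change -0.31, SE 0.048, edgeR adjusted p = 5.4e-06). Uqcrh had the most RNA per length of the nuclear complex III genes, 489 CPM per kb, and made up 43.8 to 45.4% of their summed CPM in KO and 56.0 to 58.5% in WT. The sum over all 9 genes overlapped between the genotypes, at a summed CPM of 1218 ± 71 in KO and 1177 ± 25 in WT. The sum without Uqcrh was 702, 646, 635 and 730.5 CPM in KO, against 498, 503, 501 and 525 CPM in WT. Cycs (chromosome 6, bases 50562563 to 50566538 of GRCm38, minus strand), the mobile cytochrome c, carries electrons to complex IV and triggers apoptosis when released. It had 198, 201, 202 and 234 CPM in KO, against 130.2, 130.2, 114 and 128 CPM in WT (log2 fold change 0.73, SE 0.056, edgeR adjusted p = 1.4e-10). All KO libraries were higher. Near-identical stretches of other genes cover 34.2% of the Cycs transcript. The closest of them, Gm10053, averaged 34.96 CPM in KO and 25.3 CPM in WT.

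In complex IV, 9 of 15 tested nuclear members were called higher, 3 lower and 3 were not called. These are 60% higher and 20% lower, beside 43.4% and 34.2% of all tested genes with a mean of at least 10 CPM. The X-linked Cox7b had the largest rise, with 117, 117, 111 and 133 CPM in KO, against 78.2, 83.4, 84.4 and 86.2 CPM in WT (log2 fold change 0.52, SE 0.052, edgeR adjusted p = 6.4e-09) and no overlap. Cox5a averaged 17.4 ± 2.1 CPM in KO and 13.4 ± 0.70 CPM in WT (log2 fold change 0.37, edgeR adjusted p = 0.00013). Cox6c averaged 138 ± 14 CPM in KO and 112 ± 3.2 CPM in WT (log2 fold change 0.30, edgeR adjusted p = 0.0001). Both share exonic bases with an opposite-strand gene. The common forms Cox4i1 at 148 ± 9.7 CPM in KO and 125 ± 9.0 CPM in WT, Cox6a1 at 16.3 ± 1.3 CPM in KO and 13.3 ± 0.40 CPM in WT, Cox6b1 at 55.4 ± 3.8 CPM in KO and 45.2 ± 3.2 CPM in WT, Cox7a2 at 30.5 ± 1.2 CPM in KO and 25.9 ± 0.48 CPM in WT and Cox8a at 25.5 ± 2.1 CPM in KO and 20.96 ± 0.66 CPM in WT (SD, n = 4 each) rose by log2 fold changes of 0.23 to 0.30. Ndufa4, now known as a complex IV subunit, averaged 38.8 ± 2.1 CPM in KO and 31.7 ± 1.4 CPM in WT (log2 fold change 0.29, edgeR adjusted p = 3.1e-05). Their KO and WT libraries did not overlap. Cox5b, the nuclear gene of the complex with the most RNA per length, was not called and had 573, 487, 494 and 563 CPM in KO, against 502, 478, 449.7 and 519 CPM in WT (log2 fold change 0.12, SE 0.058, edgeR adjusted p = 0.076), with overlap. Cox7c was not called either, at 44.9 ± 3.9 CPM in KO and 45.2 ± 1.3 CPM in WT (log2 fold change -0.01, edgeR adjusted p = 0.85).

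The nuclear genes of complex IV called lower were Cox7a2l, Cox6a2 and Cox6b2, each named as a form of a gene called higher. Cox7a2l (chromosome 17, bases 83501919 to 83514333 of GRCm38, minus strand), also called SCAF1, joins complexes III and IV into supercomplexes. It had 46.7, 43.99, 44.95 and 49.3 CPM in KO, against 87.8, 85.02, 86.5 and 87.6 CPM in WT (log2 fold change -0.91, SE 0.045, edgeR adjusted p = 3.5e-14). The KO libraries held 53.3% of the WT mean, beside 117.6% for Cox7a2. Cox6a2, the form of heart and skeletal muscle, had 0.875, 0.960, 1.11 and 0.811 CPM in KO, against 2.39, 2.37, 2.63 and 1.88 CPM in WT (log2 fold change -1.29, SE 0.17, edgeR adjusted p = 3.6e-07), a low level beside Cox6a1. Cox6b2, best known from testis, had 8.25, 9.38, 8.49 and 9.19 CPM in KO, against 14.1, 13.99, 13.2 and 15.8 CPM in WT (log2 fold change -0.70, SE 0.073, edgeR adjusted p = 1.4e-08). None of the 3 overlapped. Cox7a1, the muscle form, averaged 0.446 ± 0.16 CPM in KO and 0.626 ± 0.22 CPM in WT (log2 fold change -0.47, edgeR adjusted p = 0.19). Other tissue-restricted forms were at the limit of detection. Cox8b and Cox8c had 0 counts in all 8 libraries. If counts were independent, that would allow up to 3 counts, or 0.0487 to 0.0691 CPM in a library, for counting error only. Both mates of a pair appear to have been counted, so the floor is likely higher. Cox4i2 averaged 0.0392 CPM in KO and 0.0358 CPM in WT, and Ndufa4l2, a hypoxia-induced relative of Ndufa4, 0.0305 CPM in KO and 0.0346 CPM in WT. Cox7b2 had 2 counts in KO1 and 0 in every other library.

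**Figure D3:**
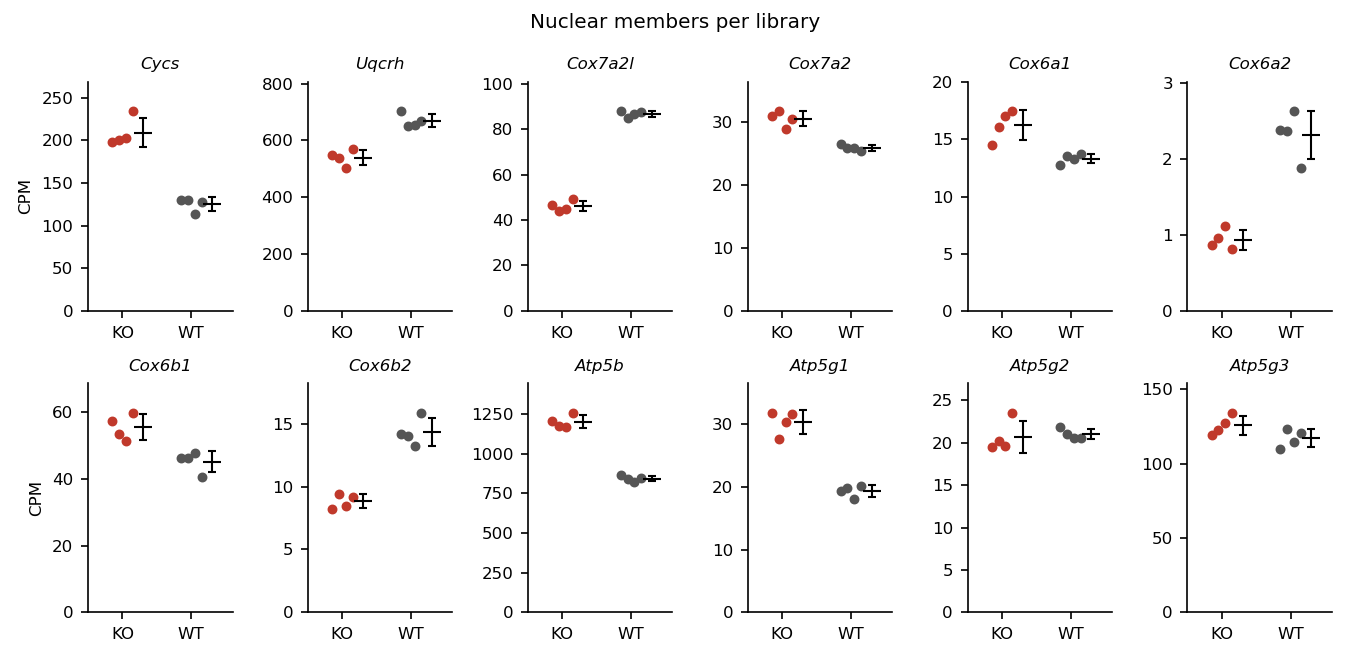
CPM per library of 12 nuclear members, KO left of WT, with the mean and SD of 4 libraries to the right of the points; each axis starts at 0. Cycs, Atp5b and Atp5g1 are higher in every KO library and Uqcrh, Cox7a2l, Cox6a2 and Cox6b2 lower in every KO library, while Atp5g2 and Atp5g3 overlap.

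In complex V 11 of 15 nuclear members were called higher, 0 lower (also at an unadjusted p under 0.05 in edgeR and in DESeq2) and 4 were not called, with a median log2 fold change of 0.20. That is 73.3% higher, where 43.4% of all tested genes with a mean of at least 10 CPM were higher and 34.2% lower. Atp5b (chromosome 10, bases 128083273 to 128090391 of GRCm38, plus strand) encodes the catalytic beta subunit and had 1206, 1177, 1169 and 1256 CPM in KO, against 862, 842, 822 and 846 CPM in WT (log2 fold change 0.51, SE 0.045, edgeR adjusted p = 9.1e-10). It was the nuclear member with the highest CPM and made up 32.9 to 33.8% of the summed CPM of nuclear complex V in KO and 28.1 to 29.5% in WT. Atp5d, of the central stalk, had 32.4, 28.1, 29.5 and 33.4 CPM in KO, against 20.04, 20.7, 22.8 and 22.4 CPM in WT (log2 fold change 0.52, SE 0.061, edgeR adjusted p = 9.1e-08). Neither gene overlapped. Atp5g1, Atp5g2 and Atp5g3 encode the same mature c subunit of the rotor ring from different precursors. Atp5g1 had 31.8, 27.6, 30.4 and 31.6 CPM in KO, against 19.4, 19.8, 18.1 and 20.1 CPM in WT (log2 fold change 0.65, SE 0.057, edgeR adjusted p = 8.4e-10). Atp5g2 averaged 20.7 ± 1.9 CPM in KO and 20.98 ± 0.59 CPM in WT (log2 fold change -0.02, edgeR adjusted p = 0.8). Atp5g3, the one with the most RNA, averaged 126 ± 6.4 CPM in KO and 117 ± 6.2 CPM in WT (log2 fold change 0.11, edgeR adjusted p = 0.06). Atp5g3 was called higher without KO1 or WT2 (adjusted p = 0.043 in each), and among genes without exon overlap (adjusted p = 0.028). Atp5g1 made up 16.2 to 18.7% of the CPM of the c subunit genes in KO and 11.8 to 12.9% in WT. Atp5sl, an assembly factor of complex I in spite of its name, averaged 18.1 ± 1.1 CPM in KO and 26.6 ± 1.5 CPM in WT (log2 fold change -0.56, edgeR adjusted p = 2e-08) and did not overlap.

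Sums of CPM were formed by complex and genome of origin. The 7 mitochondrial genes of complex I summed to 4984 ± 83 in KO and 6189 ± 495 in WT and the 36 nuclear ones to 2988 ± 103 in KO and 2846 ± 109 in WT (summed CPM, mean ± SD, n = 4 each). The mitochondrial sum was lower in every KO library and the nuclear sum overlapped. The mitochondrial genes of complex IV summed to 2107 ± 113 in KO and 2581 ± 121 in WT, without overlap, and its nuclear genes to 1219.7 ± 85 in KO and 1108 ± 41 in WT, with overlap. For complex V the mitochondrial sum was 71.8% and the nuclear sum 123% of the WT mean, neither with overlap. With the copy of mt-Atp6 added, the mitochondrial sum of complex V was 1565, 1574, 1487 and 1647 CPM in KO, against 1877, 1749, 1887 and 1619 CPM in WT, which is 87.9% of the WT mean. KO4 then lay above WT4, so the groups overlapped, while those of complexes I and IV stayed apart with their copies added. Over all members, the mitochondrial genes summed to 9866, 9605, 9315 and 9913 CPM in KO, against 12569, 11443, 11291 and 10709.7 CPM in WT. The nuclear subunits and Cycs, 85 genes, summed to 9796, 9289, 9335 and 10189 CPM in KO, against 8704, 8472, 8353 and 8718 CPM in WT. On the genes' own counts, the ratio of the nuclear to the mitochondrial sum was 0.993, 0.967, 1.002 and 1.03 in KO, against 0.693, 0.740, 0.740 and 0.814 in WT. Every KO library was higher. With the copies added, the 13 mitochondrial genes summed to 13079, 12723, 12208 and 13150 CPM in KO, against 16392, 15067.5, 15074 and 14098 CPM in WT. That was more than the nuclear sum in every library, so the near-equal sums in KO hold for own counts only. With the copies on chromosome 1 added, the 13 mitochondrial genes held 1.22 to 1.31% of all counts in KO and 1.41 to 1.62% in WT. These sums share genes with the counts of calls above and carry no test of their own.

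**Figure D4:**
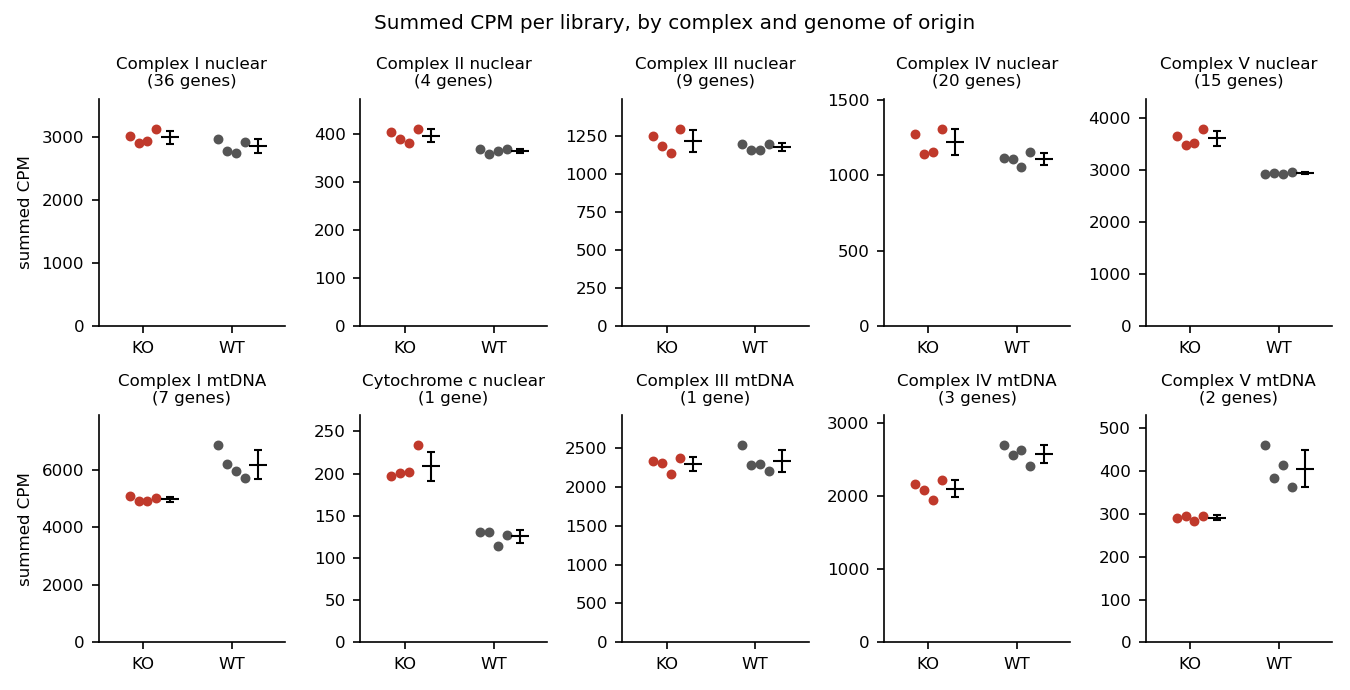
Summed CPM per library of the members of each complex by genome of origin, KO left of WT, with mean and SD of 4 libraries beside the points; each axis starts at 0. On the genes' own counts, the sums of the mitochondrial genes of complexes I, IV and V are lower in every KO library (for complex V the groups overlap once the copy of mt-Atp6 is added), and the nuclear sums of complexes II and V and Cycs are higher in every KO library.

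Promoters of the nuclear members were searched for motifs of factors known to act on respiratory genes, namely NRF1 (GCGCATGCG), the ETS family with GABP (CCGGAAG) and YY1 (AAGATGGC), on both strands of the window from 250 bases before to 50 after the start in the RefSeq set on GRCm38.p6. No 2 different motifs share bases in the windows shown, but the NRF1 motif, nearly its own reverse complement, is met on both strands at 1 place in Uqcrc1. Of 87 nuclear members 71 had a window, and 31 of them (43.7%) held a motif, against 14.1% of 27025 genes. NRF1 letters stood in 12.7% of the members and 1.95% of genes, ETS letters in 22.5% and 9.93%, and YY1 letters in 15.5% and 3.19%. Of tested members with any motif 21 of 31 were called higher and 2 lower, and of those without 20 of 38 were higher and 6 lower. The median log2 fold change was 0.34 over 9 members with NRF1 letters and 0.17 over 60 without, 0.30 over 11 with YY1 letters and 0.17 over 58 without, and 0.17 over 16 with ETS letters and 0.19 over 53 without. These are descriptions of 300-base windows and not sites of binding. The windows of the called members with the largest rise and fall among those that hold a motif are shown with the motifs in capitals, as Cycs (chr6:50566520-50566819, minus strand, NRF1 on the other strand), Uqcr11 (chr10:80406772-80407071, minus strand, ETS, then NRF1 on the other strand), Uqcrc1 (chr9:108936398-108936697, plus strand, NRF1 on both strands), Atp5sl (chr7:25619164-25619463, plus strand, YY1) and Uqcrh (chr4:116075021-116075320, minus strand, ETS on the other strand).
Cycs: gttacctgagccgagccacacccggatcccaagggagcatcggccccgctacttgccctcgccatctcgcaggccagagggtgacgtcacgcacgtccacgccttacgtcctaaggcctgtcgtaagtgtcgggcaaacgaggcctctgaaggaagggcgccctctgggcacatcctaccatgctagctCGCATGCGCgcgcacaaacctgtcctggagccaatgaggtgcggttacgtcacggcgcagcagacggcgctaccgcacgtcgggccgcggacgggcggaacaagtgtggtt
Uqcr11: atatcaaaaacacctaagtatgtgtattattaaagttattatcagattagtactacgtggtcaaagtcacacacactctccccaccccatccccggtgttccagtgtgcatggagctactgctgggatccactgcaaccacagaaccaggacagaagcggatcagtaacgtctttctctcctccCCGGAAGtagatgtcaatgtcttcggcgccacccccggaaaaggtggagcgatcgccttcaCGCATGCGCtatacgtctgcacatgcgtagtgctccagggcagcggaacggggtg
Uqcrc1: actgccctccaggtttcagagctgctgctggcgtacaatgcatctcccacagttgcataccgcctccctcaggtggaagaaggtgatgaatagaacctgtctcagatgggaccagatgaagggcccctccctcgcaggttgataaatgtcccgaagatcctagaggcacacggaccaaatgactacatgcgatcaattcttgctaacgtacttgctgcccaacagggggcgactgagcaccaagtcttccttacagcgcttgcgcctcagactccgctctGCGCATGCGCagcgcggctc
Atp5sl: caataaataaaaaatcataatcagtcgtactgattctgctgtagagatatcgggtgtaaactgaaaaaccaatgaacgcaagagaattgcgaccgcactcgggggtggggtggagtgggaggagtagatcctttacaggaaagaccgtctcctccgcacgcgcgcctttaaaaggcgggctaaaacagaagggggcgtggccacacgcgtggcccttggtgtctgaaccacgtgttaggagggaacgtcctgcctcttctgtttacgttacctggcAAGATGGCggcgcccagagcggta
Uqcrh: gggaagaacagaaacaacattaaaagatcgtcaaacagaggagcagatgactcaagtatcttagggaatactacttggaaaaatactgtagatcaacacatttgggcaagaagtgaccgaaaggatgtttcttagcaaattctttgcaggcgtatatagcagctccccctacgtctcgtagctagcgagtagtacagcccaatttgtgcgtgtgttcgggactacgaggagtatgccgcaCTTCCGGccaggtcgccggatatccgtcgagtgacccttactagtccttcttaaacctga
Uqcrc1, a core protein of complex III, averaged 162 ± 10.5 CPM in KO and 119 ± 2.3 CPM in WT (log2 fold change 0.45, edgeR adjusted p = 1.7e-08) without overlap. Only 2 called falls held a motif, so the set shows 3 rises and 2 falls.

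Genes that build and serve the chain were also more often called higher than lower in KO. Most of them had a mean of at least 10 CPM, where 43.4% of all tested genes were called higher and 34.2% lower. Beside the 32.8% of all tested genes called higher and 31.6% lower, the assembly factors of complex I had 12 of 18 called higher and 1 lower. Those of complex II had 3 of 4 and 0, of complex III 3 of 6 and 0, of complex IV 13 of 23 and 3, and of complex V 6 of 6 and 0. At an unadjusted p under 0.05, edgeR had 1 complex III factor lower and 0 of the factors of complexes II and V, and DESeq2 called 0 of the 3 lists lower. The complex I factor Ndufaf4 averaged 56.6 ± 3.1 CPM in KO and 26.5 ± 1.2 CPM in WT (log2 fold change 1.09, edgeR adjusted p = 1.1e-14). Sco1, which delivers copper to complex IV, averaged 32.6 ± 1.3 CPM in KO and 14.8 ± 0.63 CPM in WT (log2 fold change 1.14, edgeR adjusted p = 1.7e-14). Pet100, a further complex IV factor, averaged 57.5 ± 2.2 CPM in KO and 86.3 ± 4.4 CPM in WT (log2 fold change -0.59, edgeR adjusted p = 1.8e-10). Uqcc1 of complex III averaged 51.9 ± 1.3 CPM in KO and 32.2 ± 1.4 CPM in WT (log2 fold change 0.69, edgeR adjusted p = 8.5e-12). Tmem70 of complex V averaged 19.02 ± 0.95 CPM in KO and 9.69 ± 1.1 CPM in WT (log2 fold change 0.97, edgeR adjusted p = 6.6e-11). Genes of protein import and the outer membrane were higher in 23 of 24 and lower in 0 (also at an unadjusted p and in DESeq2), and the translocase subunit Timm17a stood at 45.7 ± 1.6 CPM in KO and 21.4 ± 0.33 CPM in WT (log2 fold change 1.09, edgeR adjusted p = 3.5e-15). Hspd1, the mitochondrial chaperonin, stood at 1184 ± 51 CPM in KO and 504 ± 13 CPM in WT (log2 fold change 1.23, edgeR adjusted p = 2.7e-16). The citric acid cycle had 15 of 18 higher and 1 lower. Of 18 genes of ubiquinone synthesis and of other electron entry points 14 were higher and 1 lower. Gpd2, the glycerol 3-phosphate dehydrogenase that feeds ubiquinone, averaged 39.9 ± 1.7 CPM in KO and 15.3 ± 1.3 CPM in WT (log2 fold change 1.38, edgeR adjusted p = 2.4e-15). Cristae and carrier genes had 8 of 15 higher and 1 lower. At a mean of at least 10 CPM they had 7 of 13 higher, and the complex IV assembly factors 9 of 16. Of these lists, those 2 came nearest to the share of all genes at that level. The phosphate carrier Slc25a3 averaged 195 ± 11 CPM in KO and 132 ± 4.7 CPM in WT (log2 fold change 0.57, edgeR adjusted p = 2.9e-10).

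Genes that act on mitochondrial DNA and RNA were mixed, and those of RNA processing were mostly higher in KO. Of the RNA processing genes 14 of 16 were higher and 0 lower (also at an unadjusted p under 0.05 and in DESeq2). Elac2, which cuts the ends of tRNAs, averaged 105 ± 0.82 CPM in KO and 56.8 ± 0.99 CPM in WT (log2 fold change 0.89, edgeR adjusted p = 8.8e-15). Pnpt1, a subunit of the RNA-degrading complex, averaged 71.7 ± 2.5 CPM in KO and 44.4 ± 2.3 CPM in WT (log2 fold change 0.69, edgeR adjusted p = 9.7e-12). Of 10 transcription genes 5 were higher and 2 lower, with Tfb2m, a transcription initiation factor, at 15.05 ± 0.59 CPM in KO and 9.89 ± 0.56 CPM in WT (log2 fold change 0.60, edgeR adjusted p = 2.9e-08). Mterf1b averaged 3.51 ± 0.30 CPM in KO and 5.67 ± 0.56 CPM in WT (log2 fold change -0.69, edgeR adjusted p = 3.3e-06). Tfam, which packages mitochondrial DNA and starts its transcription and was looked up after the lists were counted, averaged 87.3 ± 3.7 CPM in KO and 90.5 ± 1.2 CPM in WT (log2 fold change -0.05, edgeR adjusted p = 0.3). Of 10 replication genes 7 were higher and 3 lower. The topoisomerase Top1mt averaged 24.6 ± 2.3 CPM in KO and 13.6 ± 0.58 CPM in WT (log2 fold change 0.86, edgeR adjusted p = 6.8e-11). Among 13 tested regulators of mitochondrial biogenesis 4 were higher and 3 lower, a split close to that of all genes. The coactivator Pprc1 averaged 92.3 ± 8.6 CPM in KO and 49.6 ± 1.6 CPM in WT (log2 fold change 0.90, edgeR adjusted p = 2.5e-12). The nuclear receptor Esrra averaged 14.9 ± 1.1 CPM in KO and 10.1 ± 0.49 CPM in WT (log2 fold change 0.57, edgeR adjusted p = 1.6e-07). Creb1 averaged 112 ± 7.3 CPM in KO and 205 ± 3.6 CPM in WT (log2 fold change -0.87, edgeR adjusted p = 2e-13).

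**Figure D5:**
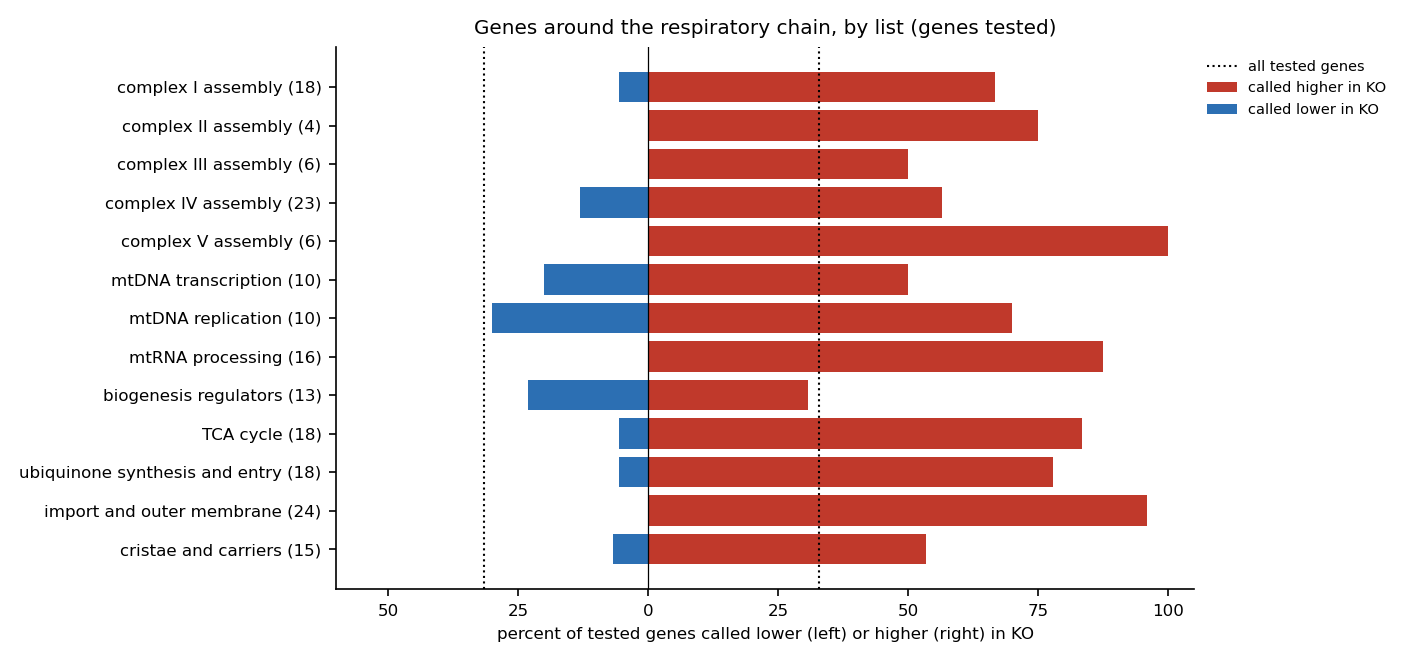
Share of the tested genes of each related list called higher (red, right) or lower (blue, left) in KO, with the number tested in brackets and the shares over all tested genes as dotted lines. The largest shares of higher genes are those of complex V assembly (6 of 6) and of import and the outer membrane (23 of 24), and the biogenesis regulators lie near the shares of all genes.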

How the data were processed

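RNA was measured in 8 mouse libraries, 4 KO and 4 WT, grouped by genotype. Per the labels' protocols, TRIzol RNA went into a stranded mRNA library kit. The submitters' processing notes name Trimmomatic 0.36, featureCounts, Subread 1.5.1 and the build GRCm38. Not given in the sources used are the aligner, annotation, strand setting and treatment of reads that match several places. The authors deposited raw counts per gene, with no normalization. In each library 85.7% to 87.7% of the counts of genes with few counts lay on even values, so both mates of a pair appear to have been counted.

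Counts were fitted in edgeR 4.0.16 (R 4.3.3, limma 3.58.1) over all 17940 genes kept by filterByExpr, with TMM scaling, robust quasi-likelihood F tests, two-sided, KO against WT, and Benjamini-Hochberg adjustment over all tested genes at 0.05. On simulated KO and WT counts of 17748 genes, 200 of them changed 2-fold, the fit recovered 100% of the changed genes, and 6.54% of its calls were false. CPM use TMM-scaled totals. Members, gene lists, motifs and the rule for named genes were chosen with earlier results of these data known. The rule named all mitochondrial, complex II, X-linked and isoform members, Cyc1 and Cycs, and in the other complexes up to 3 called rises and 3 called falls with a mean of at least 10 CPM and the member with the most CPM per kb. Of each related list it allowed up to 3 called genes. Ndufa12, Ndufs3, Ndufv1, Cox5b, Cox7c and Tfam fell outside it and were chosen after their values were seen.

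Near-identical copies are matches of at least 98% identity over at least 50 bases between a member's longest coding transcript and transcripts of other genes (GENCODE M21, BLAST 2.17.0). Unannotated copies were not looked for. Exons of 36 members overlap another gene. Library pairs differed by a median chi-square per gene of 1.69 to 4.47 times sampling noise in the 12 pairs of the same genotype. In the 16 mixed pairs it was 28.4 to 39.2 times. Since counting both mates also adds spread, these values cannot tell whether libraries of a genotype repeat the same sample. Alternatives were DESeq2 1.42.0, other scalings, no filter, halved counts, genes without exon overlap, a fold of 1.5, a replicate block, each library left out and, chosen after the data were seen, the 2 treatments of copies. Intervals and floors cover counting error only, and floors treat counts as independent.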

Additional observations from a re-analysis of the deposited data

Results flagged for a closer look

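In 120 groups of 4 libraries (members the text names and sums by complex), the gap between the highest or lowest library and its nearest neighbour was compared with the whole range of the group. Chance puts about 1 in 20 groups past Dixon's critical value at the 95% level, and 5 passed here. The gap ratio was 0.927 for Sdha in WT, where WT2 stood at 240.3 CPM and the others at 244 to 245 CPM, a narrow range. It was 0.866 for Cycs in KO, where KO4 stood at 234 CPM and the others at 198 to 202 CPM, and 0.844 for Cycs in WT, where WT3 stood at 114 CPM and the others at 128 to 130.2 CPM. The other 2 are the same Cycs values as the cytochrome c sum, at 0.866 and 0.844.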

How the results depend on the processing

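Members called higher numbered 52 and lower 20. With other size factors, library totals alone, TMM without the mitochondrial genes, no filter, halved counts or DESeq2 they numbered 50 to 52 and 19 to 20, and no scaling turned the median of the nuclear or the mitochondrial members. Among genes without exon overlap, 60 members were tested and 8 were called lower, beside 3693 genes higher and 3619 lower in the whole table, and the mitochondrial median was -0.0033 over the 3 genes left (mt-Nd3, mt-Co2 and mt-Cytb), since fewer genes were tested. Against a fold of 1.5, 2 members were higher and 3 lower (mt-Co2 on its own counts only), with 1516 and 1629 genes in the table. Without members that have near-identical copies, 13 of 76 were lower. With the copies on chromosome 1 added the mitochondrial median moved to -0.28, and the log2 ratio of the summed mitochondrial genes of complex V to -0.19, against -0.48 on their own counts.

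Leaving out 1 library gave 46 to 53 members higher and 18 to 20 lower, a nuclear median of 0.16 to 0.21 and a mitochondrial median of -0.39 to -0.28, the value nearest 0 being that without WT1. The log2 ratio of the summed mitochondrial gene of complex III, mt-Cytb, ran from -0.057 to 0.019 and changed sign without KO3 (0.0066) or WT1 (0.019), and its fitted log2 fold change did too (0.0066 and 0.019). Signs also turned for Atp5g2 without KO1 (0.0034) or KO3 (0.0072, range from -0.091 to 0.0072), for Ndufb11 without KO2 (0.040) or WT1 (0.029, range from -0.049 to 0.040) and for Sdhc without KO4 (-0.023, range from -0.023 to 0.12), none of them called. Calls lost or gained for mt-Nd1, mt-Nd2, mt-Nd3, Sdha, Sdhb and Atp5g3 are given with those genes. Sdha also lost its call with library totals alone (adjusted p = 0.095), no filter (0.14) and halved counts (0.065). The cause was not tested.

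Same-numbered KO and WT libraries deviated together little (correlations 0.0049 to 0.057), so the numbers are not taken to pair them. With the replicate number as a block 55 members were higher and 20 lower, Sdhb and Atp5g3 being called higher in addition. Depth limits the genes with few counts, and gene counts cannot place a read that matches a gene and its copy.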

Other observations

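Besides the coding genes, the mitochondrial genome holds 2 rRNA and 22 tRNA genes. The large rRNA mt-Rnr2 averaged 207 ± 13 CPM in KO and 181 ± 9.8 CPM in WT (SD, n = 4 each; log2 fold change 0.19, edgeR adjusted p = 0.0020), with every KO library higher. The small rRNA mt-Rnr1 averaged 59.2 ± 8.9 CPM in KO and 55.2 ± 5.1 CPM in WT (log2 fold change 0.10, edgeR adjusted p = 0.43). The tRNA genes summed to 246 ± 14 CPM in KO and 239.8 ± 17 CPM in WT, with overlap, and most of that sum lay on mt-Ty, at a mean of 133 CPM. Such RNAs are mostly not polyadenylated, and these counts are no measure of their abundance.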
